A study of Homo sapiens with 6 samples.

Results

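The genes described here are ligands and receptors of axon guidance: the ephrins and their EPH receptors, the semaphorins with their plexin and neuropilin receptors, the slits with their roundabout receptors, and the netrins with DCC and the UNC5 receptors. They were taken by gene name alone, as every row of the deposited table whose symbol belongs to one of these families, and 71 of the 34692 rows did. These were 14 EPH receptors, 8 ephrins, 20 semaphorins, 11 plexins and neuropilins, 3 slits, 4 roundabouts, 6 netrins and 5 netrin receptors. All were measured on Illumina bead arrays, 3 of isthmic organizer (IsO)-like cells and 3 of control neural cells, both derived from the human embryonic stem cell line H9. The isthmic organizer is the signalling centre between midbrain and hindbrain. Per the labels' protocols, both groups were neuralised as floating aggregates for 4 days with 5 µM dorsomorphin and 10 µM SB431542, inhibitors of BMP and activin/TGF-beta receptors, and grown attached for 5 further days. IsO-like cells also received 100 ng/ml of the growth factor FGF8, together with the Wnt-activating GSK3 inhibitor CHIR99021, whose concentration the labels give only as a range from 0 to 1.2 µM. All samples come from 1 line, and nothing in the labels says that the 3 samples of a group were separate cultures, so the p-values refer to the spread among these 6 samples and no wider, and some of that spread may be technical.

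Growing axons steer by cues that attract or repel the growth cone, and the same cues keep neighbouring cell groups of the early neural tube apart. Ephrins are anchored in the membrane of one cell and bind EPH receptor kinases on the next. Slits and class 3 semaphorins are secreted and mostly repel, through roundabout receptors and through plexins with neuropilins. Netrins attract through DCC and repel through UNC5 receptors. Several of these genes also act in vessel growth and in migration of neural crest.

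The clearest change among the 71 genes was in the slit system. SLIT1 was above background in all 3 IsO arrays and in none of the 3 control arrays. It was the 1 member that passed the test without a term for the replicate number. That is 2.38% of the 42 tested members, against 1.31% of all tested rows. With the replicate number as a block, 6 members passed, 14.3% of those tested against 5.86% of all tested rows. Of these 6, SLIT1, EFNB3 and EPHB3 were higher in IsO-like cells, and EPHA4, ROBO3 and SEMA3A were lower. The pairing by number comes from the data and not from the labels, and the groups overlapped for EPHB3 and EPHA4. Most plexins and semaphorins that could be tested showed no difference that passed either test.

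A member was tested where its detection p-value, which compares its signal with the array's negative control probes, was below 0.05 on at least 3 of the 6 arrays. This left 42 of the 71 members among 14548 tested rows. Differences are IsO minus control on the scale of background-corrected, quantile-normalised log2 intensity, and called means a limma p-value below 0.05 after Benjamini-Hochberg adjustment over all tested rows. By this test 1 member rose, none fell and 41 did not pass, against 1.31% of all tested rows called, while 10 members had an unadjusted p below 0.05, against 9.93% of tested rows. The arrays numbered 1 deviated together in the 2 groups, whereas IsO 2 and IsO 3 each correlated better with a control array of another number. With the replicate number as a block 3 members rose and 3 fell, 14.3% of the 42 against 5.86% of all tested rows. In the direction of higher values the block called 7.14% of members and 3.31% of rows, and in the direction of lower values 7.14% and 2.55%. The groups did not overlap for 6 members with IsO above and 5 with IsO below, against 8.2% and 7.24% of tested rows. The median difference of the members was -0.06, against -0.01 over all tested rows, with 19 members above 0, against 48.3% of tested rows, and 23 below. The sign was the same at all 3 replicate numbers for 28 members, against 48.1% of tested rows.

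**Figure D1:**
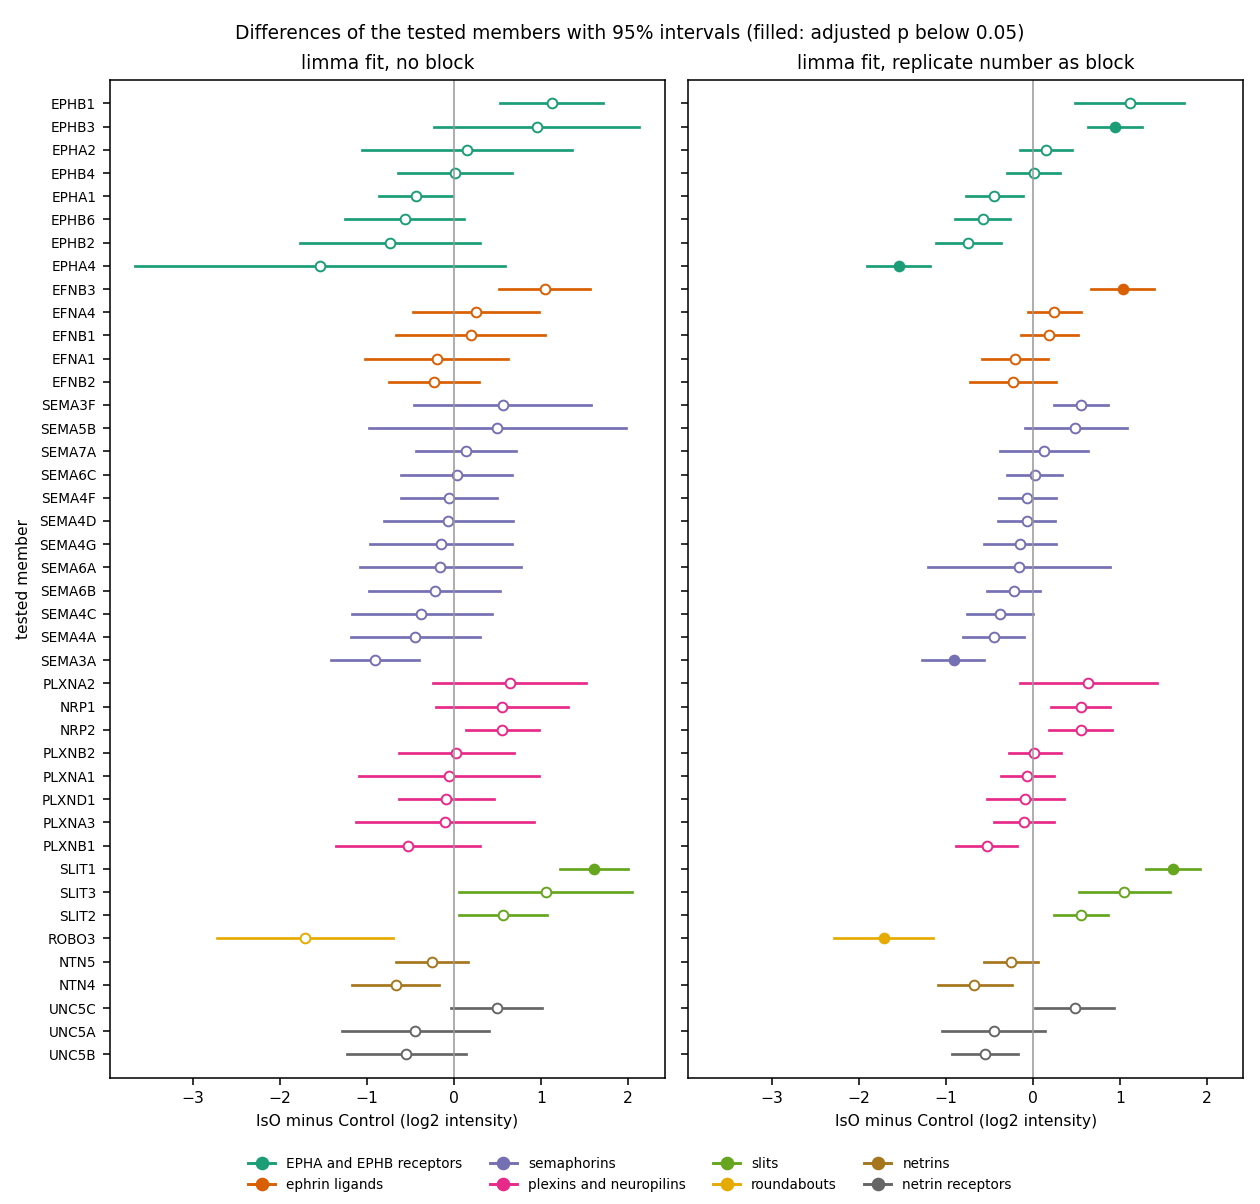
Difference IsO minus control in log2 intensity (x axis) for each of the 42 tested members (y axis), coloured by family, with 95% intervals from limma without the replicate number (left) and with it as a block (right). Filled points passed the adjusted test: SLIT1 on the left, and SLIT1, EFNB3, EPHB3, EPHA4, ROBO3 and SEMA3A on the right.

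The arrays had median deposited intensities of 143.6 to 156.6 and between 13999 and 15232 rows with a detection p-value below 0.05, and their number limits the precision. The labels were checked on marker lists. Of 6 tested isthmic organizer genes 5 rose in IsO-like cells, and of 7 tested forebrain genes 6 fell. Neuronal markers had summed intensities of 22747 to 30010 in IsO-like cells, against 13471 to 18440 in control cells, and 1 of 7 tested rose, or 3 with the block. All 7 had differences above 0. Most of each sum was TUBB3, with 19373 to 23965 in IsO-like and 10892 to 16642 in control cells. TUBB3 itself passed neither test (limma adjusted p = 0.464, 0.0988 with the block). Of 6 tested progenitor markers 1 fell, or 4 with the block, with sums of 61797 to 91589 in IsO-like and 93996 to 132407 in control cells. Of these 6, VIM alone was higher in IsO-like cells, by 0.54 (limma adjusted p = 0.265, 0.0699 with the block). Of 5 tested neural crest markers 1 rose, or 4 with the block, while SOX9 went the other way, by -1.01 (limma adjusted p = 0.562, 0.244 with the block). The sums of that list were 3092 to 13404 in IsO-like and 3123 to 4230 in control cells. The highest of these is IsO 1 alone, where SOX10, a neural crest factor, had an intensity of 7094, against 1052 and 1074 on the other IsO arrays and 369 to 1302 on the control arrays. None of 3 tested mesenchyme markers passed, or 1 rose with the block, and the sums of that list were 1901 to 4510 in IsO-like and 1283 to 1632 in control cells, the highest again on IsO 1, where COL1A2 had 3392, against 895 and 832 on the other IsO arrays and 537 to 766 on the control arrays. The endothelial markers PECAM1, CDH5 and KDR were not above background on any array. Fewer cells of a type and less RNA per cell cannot be told apart in such bulk samples, and the part that these shifts have in the differences below was not tested.

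Among the slit ligands, SLIT1 had deposited intensities of 280, 226 and 223 on IsO arrays 1, 2 and 3, against 136, 138 and 134 on control arrays 1, 2 and 3. Every IsO array was above every control array, and the control values lay below the lowest signal of a detected row, which was 155 to 165 on those arrays. On the normalised scale SLIT1 averaged 6.95 ± 0.11 in IsO-like and 5.34 ± 0.04 in control cells (SD, n = 3 each), a difference of 1.61 ± 0.16 (SE, adjusted p = 0.00978, 0.00771 with the block), or at least 2.19-fold higher in IsO-like cells. That bound sets the IsO mean against the lowest value of a detected row of 1 probe on each control array, and another background correction would give another bound. The difference was 0.77 where no background was subtracted (adjusted p = 0.0311) and 0.06 where it was inferred from all rows (adjusted p = 0.133). The call was lost without control 2, control 3 or IsO 2 (adjusted p = 0.0813, 0.0929 and 0.0962), while the difference stayed between 1.57 and 1.67 without any single array. It was also lost with the block without both arrays numbered 1 (adjusted p = 0.122). That fit called 0 of all tested rows, so here and below a call lost in it is not particular to the gene.

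SLIT2 had intensities of 406, 259 and 266 on IsO arrays, against 243, 228 and 210 on control arrays. The groups did not overlap, but the difference of 0.56 ± 0.21 (SE, n = 3 each) did not pass (adjusted p = 0.442, 0.0694 with the block). SLIT3 had 498, 290 and 221 on IsO arrays, against 199, 226 and 167 on control arrays. One IsO value lay below the highest control value, and the difference was 1.05 ± 0.41 (adjusted p = 0.459, 0.0563 with the block). All 3 slits were higher in the IsO array of every number, by 0.64, 0.45 and 0.58 for SLIT2 and by 1.59, 0.75 and 0.82 for SLIT3, while for SLIT1, at background in control cells, no such size is given.

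ROBO3 was the one roundabout receptor that could be tested. In mammals it lets commissural axons approach the midline despite slit, before they cross. Its intensities were 499, 522 and 861 on IsO arrays, against 995, 2364 and 1829 on control arrays. Every IsO array was below every control array, with means of 8.87 ± 0.67 and 10.58 ± 0.56 on the log2 scale (SD, n = 3 each). The difference was -1.71 ± 0.43 (SE, adjusted p = 0.170), with a 95% interval from -2.73 to -0.70, and with the block its SE was 0.22 (adjusted p = 0.0219, 0.200 without the pair numbered 1), a level 0.305 times that of control cells. Inferring the background from all rows gave -0.88 without the block. ROBO2 and ROBO4 were not above background on any array. ROBO1 reached it on IsO array 1 alone, with an intensity of 178, against 122 and 121 on the other IsO arrays and 128 to 140 on the control arrays.

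**Figure D2:**
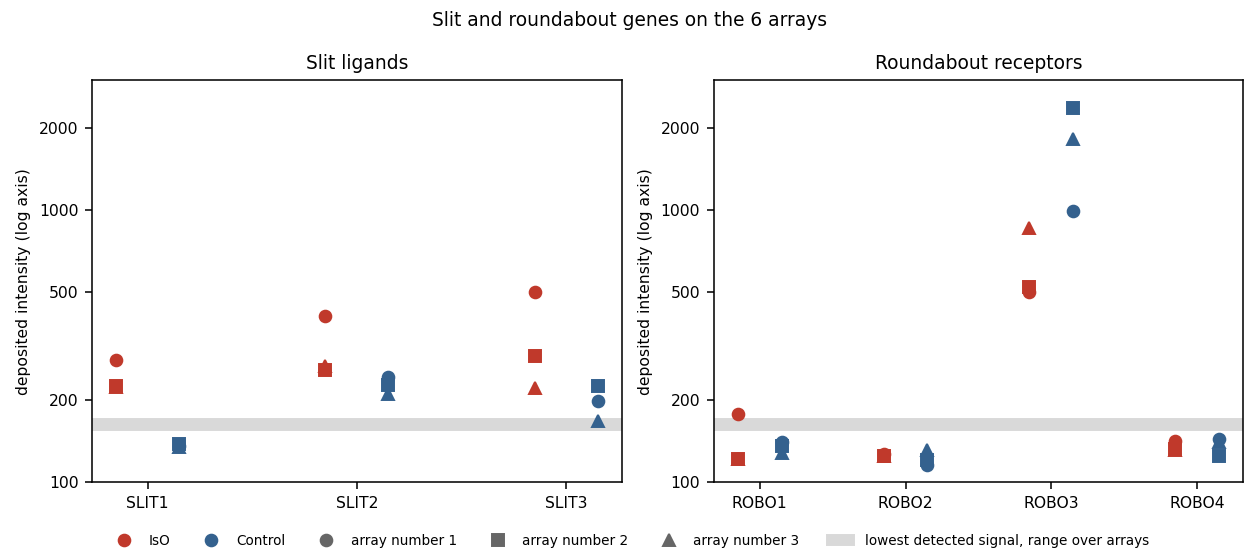
Deposited intensity on a log axis for the 3 slits (left) and the 4 roundabouts (right) on each array, with IsO arrays in red left of control arrays in blue. The grey band spans the lowest signal of a detected row of 1 probe over the 6 arrays: SLIT1 lies above it in IsO arrays and below it in control arrays, and ROBO2 and ROBO4 lie below it everywhere.

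The promoter letters of members that passed with the block are shown because TCF/LEF factors act at the end of the Wnt pathway, and homeodomain factors pattern the brain regions compared. RefSeq windows on GRCh38.p14 were found for 60 of the 71 members. None was found for EFNB3 and SEMA3A, which also passed with the block and are not shown. For SLIT1, ROBO3, EPHA4 and EPHB3 the 250 bases before the most upstream annotated start are printed from 5′ to 3′ on the gene's strand, and capitals mark matches on either strand to GGGCGG (SP1 type), CTTTGAT (TCF/LEF), TAATTA (homeodomain) or TAATCC (OTX type).
SLIT1, chr10:97185960-97186209, strand -: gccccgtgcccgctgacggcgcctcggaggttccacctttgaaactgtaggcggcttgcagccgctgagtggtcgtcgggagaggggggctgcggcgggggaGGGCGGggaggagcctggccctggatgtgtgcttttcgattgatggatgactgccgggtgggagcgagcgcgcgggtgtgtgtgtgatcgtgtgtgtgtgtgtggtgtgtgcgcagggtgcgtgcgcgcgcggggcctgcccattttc
ROBO3, chr11:124865182-124865431, strand +: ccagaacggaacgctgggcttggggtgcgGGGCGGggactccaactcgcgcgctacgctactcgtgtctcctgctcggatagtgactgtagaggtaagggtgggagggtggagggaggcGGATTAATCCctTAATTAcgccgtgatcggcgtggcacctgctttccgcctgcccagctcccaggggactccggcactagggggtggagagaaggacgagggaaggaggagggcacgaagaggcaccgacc
EPHA4, chr2:221574203-221574452, strand -: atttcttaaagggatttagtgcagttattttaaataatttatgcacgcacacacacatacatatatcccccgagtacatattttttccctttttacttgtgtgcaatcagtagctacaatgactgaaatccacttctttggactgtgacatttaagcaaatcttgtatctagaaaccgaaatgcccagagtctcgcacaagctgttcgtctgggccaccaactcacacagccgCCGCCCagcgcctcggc
EPHB3, chr3:184561535-184561784, strand +: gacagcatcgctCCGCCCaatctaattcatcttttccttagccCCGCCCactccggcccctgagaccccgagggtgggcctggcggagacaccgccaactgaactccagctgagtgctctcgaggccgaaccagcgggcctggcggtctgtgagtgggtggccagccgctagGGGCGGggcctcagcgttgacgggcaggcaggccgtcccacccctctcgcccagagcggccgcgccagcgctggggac
The SLIT1, EPHA4 and EPHB3 windows held 1, 1 and 3 matches to GGGCGG and none to the other letters. The ROBO3 window held 1 match to GGGCGG, 1 to TAATTA and 2 to TAATCC, and these last overlap each other on opposite strands. Among 35116 windows of the same length, 42.6% held GGGCGG, 2.26% CTTTGAT, 4.35% TAATTA and 5.62% TAATCC, so GGGCGG is common in promoters of any kind. Among the 51 windows of tested members these shares were 78.4%, 3.92%, 1.96% and 9.8%. ROBO3 has 3 annotated windows and EPHA4 has 2, and the array rows do not say which start was in use. The windows not printed held matches to GGGCGG alone, 1 and 4 for ROBO3 and 5 for EPHA4. A match is a description of letters and not a site.

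The ephrin system held 22 members, of which 13 were tested. EFNB3, an ephrin known in the mouse as a midline cue, had intensities of 8481, 9250 and 13219 on IsO arrays, against 4129, 4976 and 5606 on control arrays. Every IsO array was above every control array. EFNB3 averaged 13.28 ± 0.32 in IsO-like and 12.24 ± 0.13 in control cells (SD, n = 3 each), 2.05-fold apart, and the difference of 1.04 ± 0.22 (SE) had an adjusted p of 0.109, or 0.0252 with the block. The blocked call was lost without the pair of arrays numbered 1, 2 or 3 (adjusted p = 0.149, 0.0583 and 0.0676). Each of these fits leaves 1 residual degree of freedom, and the first called 0 of all tested rows. The difference was 1.02 where no background was subtracted and 1.21 where it was inferred from all rows. None of the other 4 tested ephrins passed either test. EFNB2, a ligand of EPHB receptors also known from arteries, differed by -0.23 ± 0.22, with a 95% interval from -0.75 to 0.29. EFNB1, EFNA4 and EFNA1 differed by 0.19, 0.25 and -0.20. EFNA3 and EFNA5 were not above background on any array, and EFNA2 was above it on 1 IsO array.

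Of the EPH receptors, EPHB3, a receptor of the B-type ephrins, had intensities of 296, 408 and 471 on IsO arrays, against 179, 265 and 285 on control arrays. Every IsO intensity was above every control intensity, but after normalisation IsO 1, at 7.12, lay below control 2 and 3, at 7.33 and 7.57, while each IsO array exceeded the control array of its own number, by 0.84, 1.04 and 0.98. The difference of 0.95 had an SE of 0.49 without the block (adjusted p = 0.667) and of 0.12 with it (adjusted p = 0.0219). Without the pair numbered 1, 2 or 3 the blocked adjusted p was 0.156, 0.059 and 0.0643, and the first of these fits called 0 of all tested rows. Without single arrays the unblocked difference ranged from 0.56 without control 1 to 1.4 without IsO 1. Without the block it was 0.60 where no background was subtracted and 0.09 where it was inferred from all rows.

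EPHA4, which binds ephrins of both classes and is known from alternating segments of the hindbrain, showed the same structure in the other direction. It had 549, 172 and 176 on IsO arrays, against 967, 274 and 305 on control arrays. The signals on IsO 2 and 3 lay close to the lowest of a detected row of 1 probe there, 158 and 171. Both arrays numbered 1 were far above the others of their group, so the groups overlapped, and each IsO array lay below the control array of its number, by -1.51, -1.33 and -1.79. The difference was -1.54 ± 0.89 without the block (SE, n = 3 each, adjusted p = 0.726) and its SE was 0.14 with it (adjusted p = 0.0113, 0.149 without the pair numbered 1), a level 0.343 times that of control cells. On the arrays numbered 2 and 3 alone, without a block, it was -1.56 (adjusted p = 0.0332). It was -0.95 where no background was subtracted and -0.21 where it was inferred from all rows. Without single arrays it ranged from -2.34 without IsO 1 to -0.76 without control 1.

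EPHB1, another receptor of B-type ephrins, had 6307, 3807 and 5314 on IsO arrays, against 1777, 3237 and 2181 on control arrays. The groups did not overlap, but the difference of 1.12 ± 0.25 did not pass (adjusted p = 0.121, 0.0694 with the block), and by number it was 1.64, 0.48 and 1.25. For EPHB2 the difference was -0.74 ± 0.43 (adjusted p = 0.734, 0.0577 with the block), and for EPHA2 it was 0.15 ± 0.51 (adjusted p = 0.991). EPHB4, the partner of EFNB2 in veins, differed by 0.01, with a 95% interval from -0.65 to 0.66. EPHB6, an EPH protein without kinase activity, and EPHA1, both chosen after their values were seen, had differences of -0.57 (adjusted p = 0.636, 0.0679 with the block) and -0.44 (adjusted p = 0.475, 0.127 with the block). EPHA1 was near background, above it on 1 IsO array and 3 control arrays, with intensities of 161 to 167 against 172 to 188. The B receptors thus had values on both sides of 0. EPHA3, EPHA5, EPHA6 and EPHA7 were not above background on any array, and EPHA8 and EPHA10, rows of several probes, were bright enough only for the wider test and did not pass there.

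**Figure D3:**
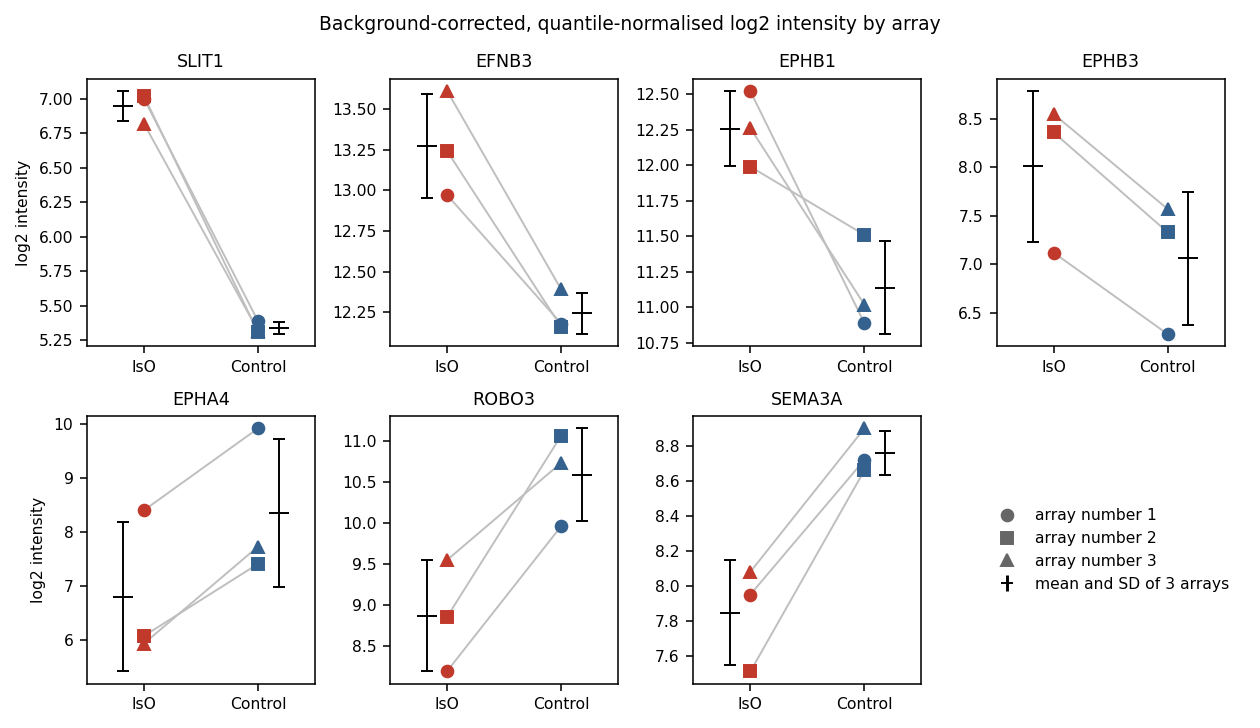
Background-corrected, quantile-normalised log2 intensity (y axis) of SLIT1, EFNB3, EPHB1, EPHB3, EPHA4, ROBO3 and SEMA3A, with IsO arrays left and control arrays right, lines joining arrays of the same number, and bars giving the mean and SD of 3 arrays. EPHB3 and EPHA4 overlap between groups yet all 3 lines run the same way, while the groups of the other 5 genes do not overlap.

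Of 20 semaphorins 12 were tested. SEMA3A, the secreted repellent that signals through neuropilin-1 and A-type plexins, had 438, 274 and 365 on IsO arrays, against 502, 509 and 568 on control arrays. Every IsO array was below every control array, and the means were 7.85 ± 0.30 and 8.76 ± 0.12 (SD, n = 3 each). The difference was -0.91 ± 0.21 (SE, adjusted p = 0.141, 0.0313 with the block), a level 0.531 times that of control cells. The blocked call was lost without the pair numbered 1, 2 or 3 (adjusted p = 0.184, 0.0734 and 0.0709), and the first of these fits called 0 of all tested rows. The difference was -0.67 where no background was subtracted and -0.14 where it was inferred from all rows. No other tested semaphorin passed either test. SEMA3F, a secreted ligand of neuropilin-2 chosen after its values were seen, had a difference of 0.56 ± 0.42 (adjusted p = 0.848, 0.0725 with the block). SEMA4D, SEMA4F, SEMA6A and SEMA5B, membrane-bound semaphorins, differed by -0.07, -0.06, -0.16 and 0.49. The intervals of SEMA4D and SEMA4F ran from -0.81 to 0.68 and from -0.61 to 0.49, and with the block from -0.40 to 0.26 and from -0.39 to 0.27. The differences of the other 6 tested semaphorins, SEMA4A, SEMA4C, SEMA4G, SEMA6B, SEMA6C and SEMA7A, lay between -0.45 and 0.13.

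A further 3 semaphorins had rows of several probes with signals as bright as detected rows of 1 probe, but detection p-values on another scale kept them out of the test. When such rows were tested too, with the block, 8 of 49 members passed, against 6.16% of all rows so tested, with 3 higher and 5 lower against 3.43% and 2.73% of those rows. The 2 added were semaphorins, and both are described after their values were seen. SEMA5A, a membrane-bound semaphorin, had 166, 176 and 185 on IsO arrays, against 230, 243 and 256 on control arrays. Its groups did not overlap, and it differed by -1.14 ± 0.20 (SE, n = 3 each, adjusted p = 0.0594, 0.0173 with the block). Its IsO signals lay close to the lowest of a detected row of 1 probe on those arrays, 161, 158 and 171. No difference without background subtraction is given for it. SEMA3E, a secreted ligand of plexin D1, had 282, 299 and 277 on IsO arrays, against 334, 476 and 463 on control arrays. Its groups did not overlap either, and it differed by -0.93 ± 0.28 (adjusted p = 0.274, 0.0259 with the block). SEMA4B was the other of these and differed by -0.33 (adjusted p = 0.935). SEMA3B, SEMA3D, SEMA3G and SEMA6D were not above background on any array. SEMA3C was above it on the arrays numbered 1 alone, with 255 on the IsO array and 175 on the control array.

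None of the 8 tested plexins and neuropilins passed either test. NRP2, a co-receptor of class 3 semaphorins, had 175, 147 and 161 on IsO arrays, against 118, 128 and 125 on control arrays. By its detection p-values it was above background on each IsO array and on no control array, but its signals on IsO 2 and 3 lay below the lowest of a detected row of 1 probe there, 158 and 171. The groups did not overlap, but the difference of 0.55 ± 0.18 did not pass (SE, n = 3 each, adjusted p = 0.316, 0.0949 with the block). NRP1, the co-receptor of SEMA3A, was chosen here after its values were seen and had 294, 207 and 191 on IsO arrays, against 203, 173 and 159 on control arrays, a difference of 0.55 ± 0.32 (adjusted p = 0.726, 0.0834 with the block). PLXNB1, the receptor of SEMA4D, differed by -0.53 ± 0.35 (adjusted p = 0.787, 0.0981 with the block). PLXNB2, PLXNA1 and PLXNA3 differed by 0.02, -0.06 and -0.10, with 95% intervals from -0.64 to 0.69, from -1.10 to 0.98 and from -1.13 to 0.92. With the block these intervals were narrower, from -0.27 to 0.32, from -0.37 to 0.25 and from -0.45 to 0.24. PLXNB3 and PLXNC1 were not above background on any array, and PLXNA4 was above it on 1 control array.

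Of the 11 netrins and netrin receptors 5 could be tested, and none passed either test. NTN4, a laminin-related netrin, had 166, 183 and 180 on IsO arrays, against 202, 204 and 218 on control arrays. Its groups did not overlap, and its difference of -0.67 ± 0.21 did not pass (SE, n = 3 each, adjusted p = 0.296, 0.0900 with the block). It was -0.30 where no background was subtracted. NTN5 counted as above background on 3 control arrays and 1 IsO array, and its difference was -0.25 ± 0.17 (adjusted p = 0.804). NTN1, the attractant known from the floor plate and chosen after its values were seen, was a row of several probes outside the main test, with 345, 315 and 443 on IsO arrays, against 201, 308 and 338 on control arrays. Those groups overlapped, and its difference of 0.49 did not pass when such rows were tested (adjusted p = 0.880, 0.163 with the block). NTN3, of the same kind, differed by -0.33 and did not pass either (adjusted p = 0.909, 0.308 with the block).

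Of the netrin receptors, UNC5C had 233, 191 and 188 on IsO arrays, against 170, 154 and 171 on control arrays. The groups did not overlap, with control 2 below background, and the difference was 0.49 ± 0.22 (SE, n = 3 each, adjusted p = 0.562, 0.184 with the block), or 0.22 where no background was subtracted. UNC5A and UNC5B differed by -0.45 ± 0.35 and -0.55 ± 0.28 (adjusted p = 0.865 and 0.664). DCC, the receptor for attraction, was not above background on any array, with intensities of 126 to 137 in IsO-like and 110 to 132 in control cells. The same held for UNC5D, and for the netrin-G genes NTNG1 and NTNG2, which encode membrane-anchored relatives.

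Array 1 often lay on the same side of the other arrays in both groups. For 26 of the 42 tested members, or 61.9%, array 1 was the lowest of its group in both groups, against 45.2% of all tested rows. It was the highest in both groups for 5 members, or 11.9%, against 25.0% of rows. EPHA2 on array 1 was 650 in IsO-like and 465 in control cells, against 1024 and 1203 on the other IsO arrays and 1065 and 1040 on the other control arrays. PLXNA1 had 882, 1174 and 1507 on IsO arrays 1, 2 and 3, against 667, 1496 and 1510 on control arrays 1, 2 and 3. In both genes array 1 was low in each group, and EPHA4 was the member with the largest shift the other way, 2.36 higher on array 1 than on the other arrays, averaged over the groups. The labels do not say what a replicate number stands for.

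**Figure D4:**
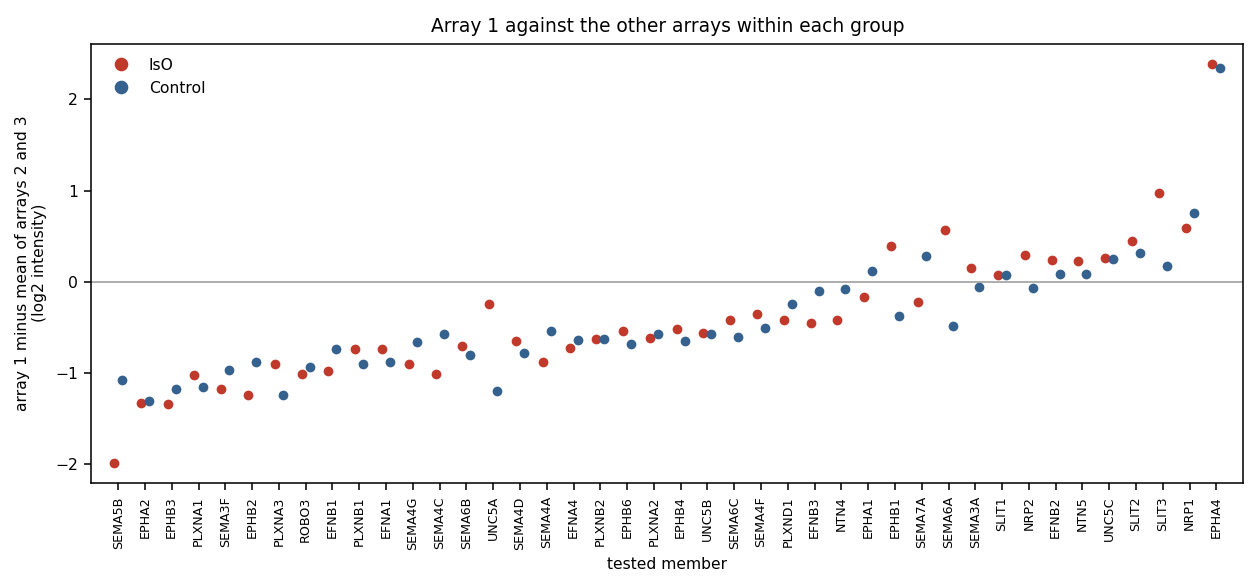
Array 1 minus the mean of arrays 2 and 3 of the same group in log2 intensity (y axis) for each of the 42 tested members (x axis, ordered by the mean of both groups), with IsO in red and control in blue. Most members lie below 0 in both groups, and EPHA4 lies above 2 in both.

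Other genes of guidance were read from 3 lists of non-members. Of 13 listed further ligands and receptors 12 had a row and 10 were tested, and none passed without the block. Of all tested rows 2.55% fell with the block, and of these 10 genes 1 did. That was RGMA, a repulsive ligand of neogenin, with means of 13.02 ± 0.78 in IsO-like and 14.23 ± 0.39 in control cells (SD, n = 3 each), a difference of -1.21 ± 0.42 (SE, adjusted p = 0.372, 0.0350 with the block). None of 5 tested adhesion molecules of growth cones passed either test. NFASC, which encodes neurofascin and had the lowest p-value of these, had a difference of 0.45 ± 0.24 (adjusted p = 0.695, and 0.173 in the blocked fit).

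Of 32 intracellular effectors of guidance receptors 20 were tested, and none passed without the block. With it 2 rose and 1 fell, or 10.0% and 5.0%, against 3.31% and 2.55% of all tested rows. NGEF, which acts downstream of EPHA receptors, had a difference of 0.94 ± 0.24 (SE, n = 3 each, adjusted p = 0.191, 0.0499 with the block). PTK2, the focal adhesion kinase, had one of 1.00 ± 0.65 (adjusted p = 0.787, 0.0488 with the block). RND2, known from migrating neurons, differed by -0.67 ± 0.18 (adjusted p = 0.215, 0.0466 with the block). These adjusted p-values lay close to the threshold. The median differences of the 3 lists were 0.18, 0.19 and 0.08, against -0.01 over all tested rows.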

How the data were processed

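Total RNA of 6 samples was labelled with biotin and hybridised to Illumina bead arrays. Per the submitters' processing notes, GenomeStudio 2011.1 was used. Per the file headers, the deposited non-normalised table gives each gene name an intensity per array (linear, and by its values not background-subtracted) and a detection p-value. The authors' processed table held log2 intensities for 34685 rows, and its largest gap to quantile-normalised, uncorrected log2 values was 0.00754, so it served as an alternative. By the spacing of detection p-values, which are multiples of 1 in 770 within 0.002, 27322 rows held 1 probe and 7370 combined several, so probes of a gene were not compared here. Genome build and aligner are not given in the sources used here.

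Intensities were corrected with limma 3.58.1 (R 4.3.3, normexp, background mean 122 to 132 and SD 22.3 to 27.8, inferred from rows of 1 probe, offset 16), quantile-normalised and put on the log2 scale. Quantile normalisation hides a shift shared by most genes, and the offset compresses differences of dim genes. IsO was tested against control with lmFit and eBayes without covariates, after a check on simulated data. A row of several probes was also taken as above background if at least as bright as the dimmest detected row of 1 probe; 996 such rows were outside the main test. Groups were taken from sample titles. No 2 arrays held identical values.

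Deviations from the group means of same-numbered arrays correlated at 0.871, 0.398 and 0.657 over tested rows. All were over the 0.1 set as the limit, so the numbers were taken to pair the samples. Deviations cancel out within a group, so a shift shared by the arrays numbered 1 also raises the values for numbers 2 and 3. Those values cannot by themselves show that numbers 2 and 3 pair. IsO 1 correlated best with the control array of its own number, whereas IsO 2 and IsO 3 each correlated better with a control array of another number. This pairing comes from the data and not from the labels. The value with the number as a block stands beside a result where it changes the call or is near it.

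Values on every array are given for members called with or without the block, or the lowest p-value of a family with none, and other members by mean level or as said in the text. Members and gene lists were chosen with earlier results of these data known. Alternatives were the block, leaving out each array, other backgrounds, offsets and filters, and the authors' values.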

Additional observations from a re-analysis of the deposited data

How the results depend on the processing

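One member, SLIT1, was called as reported, and 15 other settings and 5 more chosen after seeing the data were run. With the replicate block 6 members were called, and 8 with bright rows of several probes added to it. Of the tested rows 190 were called without the block and 852 with it. With the background inferred from all rows 0 members were called (limma; 101 of all rows were). Leaving out 1 array gave 0 to 1 members called, 0 without control 2, control 3 or IsO 2, where 46, 42 and 40 of all rows were called. The arrays numbered 2 and 3 alone gave 2 members, SLIT1 and EPHA4, where 366 of all rows were called. With the block and without the arrays numbered 1, 2 or 3, the counts were 0, 4 and 3, where 0, 574 and 445 of all rows were called. Each of these fits leaves 1 residual degree of freedom before moderation. The cause was not tested. The other alternatives kept 1 member. The 9 members called, or lowest in p in their family, had 177 values under these settings, and none changed sign; 15 passed the threshold where the reported fit did not, and 5 of SLIT1 no longer passed. Among the 42 tested members the block changed the calls of EFNB3, EPHB3, EPHA4, ROBO3 and SEMA3A and no other; with bright rows added it also changed those of SEMA3E and SEMA5A. The background inferred from all rows lies above the median intensity of every array, and with it the differences of all 9 but EFNB3 shrank, those of NRP2, NTN4 and UNC5C to 0.02, -0.03 and 0.02. Signal over background limits all values near the lowest detected signal, 155 to 171 over the arrays.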
